A study of Brassica napus with 6 samples.

Results

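A set of 207 gene identifiers was read abundantly in both kinds of microspore culture of Brassica napus (oilseed rape), out of 101040 identifiers in the table. Each had a CPM (the count divided by the library total and multiplied by 1000000) of at least 200 in every one of the 6 libraries, and the ratio of its mean CPM in heat-stressed, TSA-treated cultures to its mean CPM in pollen cultures lay between 0.5 and 2. The set was therefore chosen on its level and on its likeness between the groups, and both are given below as descriptions. All cultures were of genotype DH12075 and began as late unicellular microspores. The treated group (HS+TSA, 3 libraries) was kept at 33 °C with 0.05 µM trichostatin A (TSA) for 24 h, while the other group (pollen culture, 3 libraries) was kept at 25 °C with the solvent DMSO according to the treatment protocol, although its treatment label reads untreated. Both were then washed, held at 25 °C and collected on day 2. The HS+TSA samples are labelled as mixtures of microspores, pollen and embryogenic cells, and the pollen-culture samples as microspores and pollen. These were bulk samples, in which fewer cells of a type and less RNA per cell cannot be told apart, and heat and TSA changed together.

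A microspore is the haploid cell that normally divides asymmetrically and matures into a pollen grain. In some species, Brassica napus among them, a stress given at the right stage turns part of the cultured microspores to haploid embryo formation, and inhibitors of histone deacetylases such as TSA, which raise histone acetylation, can promote this switch. In growing plant cells the most abundant messenger RNAs commonly include those for ribosomal proteins, translation factors and the cytoskeleton, whereas maturing pollen builds up transcripts used later in tube growth. Which of these kinds the 207 members belong to could not be examined: the files pair no identifier with a name, and 0 of the 101040 were found among the 123214 genes that RefSeq lists for the Da-Ae assembly. For the same reason the labelled cell types could not be checked against marker genes, and no sequence is shown. Brassica napus carries closely related A and C subgenomes, and how reads with more than 1 best position were treated is not given in the sources used here, so the count of any single identifier is uncertain to that extent.

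Library totals ranged from 11758677 to 24773444 counts. Replicate 1 was the shallowest library of both groups, with 11758677 counts in HS+TSA and 14714537 in pollen culture. It also stood apart from replicates 2 and 3 in the members' levels, as described below. The lowest count of any member in any library was 2360, for which counting error alone gives a coefficient of variation of 2.06%.

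The 207 members were 0.205% of the identifiers but took a far larger share of the reads. They held 12.0%, 16.7% and 20.4% of the counts in HS+TSA replicates 1, 2 and 3, against 18.4%, 20.1% and 18.2% in pollen-culture replicates 1, 2 and 3. The HS+TSA mean was 16.4% ± 4.24 (SD, n = 3) and the pollen-culture mean 18.9% ± 1.05 (SD, n = 3), a difference of -2.56 percentage points that was smaller than the spread among the HS+TSA libraries. HS+TSA replicate 1 lay below the other 5 libraries, and HS+TSA replicate 3 was the highest of all. With the same members and replicates 2 and 3 alone, the means were 18.6% in HS+TSA and 19.2% in pollen culture.

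That variation came from the most abundant members. The 52 members with the highest mean CPM took 4.95%, 9.64% and 13.3% of the counts in HS+TSA replicates 1 to 3, against 10.04%, 13.0% and 11.8% in pollen culture. The other 155 members together took 7.02%, 7.02% and 7.19% in HS+TSA, against 8.36%, 7.09% and 6.45% in pollen culture. The share of these 155 was thus nearly constant in HS+TSA (7.08% ± 0.1001, SD, n = 3) and varied more in pollen culture (7.30% ± 0.974, SD, n = 3), while that of the top 52 varied most among the HS+TSA libraries (9.28% ± 4.16 against 11.6% ± 1.51, SD, n = 3).

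**Figure D1:**
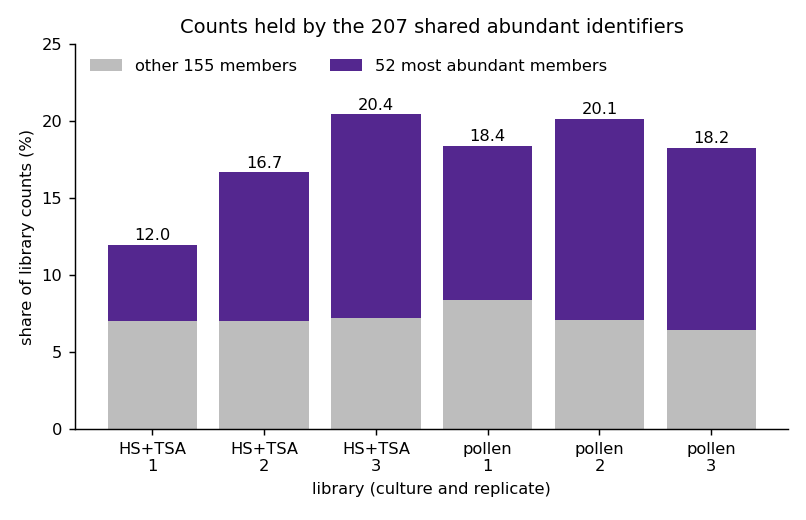
Share of library counts in percent (y axis) held by the 207 members in each library (x axis, HS+TSA replicates 1 to 3 and then pollen-culture replicates 1 to 3). The purple segments are the 52 members with the highest mean CPM and the grey ones the other 155. The total is lowest in HS+TSA replicate 1, at 12.0%, and its purple segment is the smallest of the 6.

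Levels within the set covered a wide range. The mean CPM over the 6 libraries ran from 232 to 5997 with a median of 515 (quartiles 349 and 876), and 47 members averaged 1000 CPM or more. CPM is not corrected for transcript length, so the order of the members is an order of reads and not of molecules. In every library the single most abundant identifier was a member, as were the 10 with the highest mean CPM of the whole table and 87 of the top 100. The lowest-ranked member stood at place 544, 456 and 468 among all identifiers in HS+TSA replicates 1 to 3, against 499, 500 and 431 in pollen culture. The 42 identifiers that were among the top 100 of all 6 libraries were all members. Every library had at least 438 identifiers at 200 CPM or more, so these 42 passed the floor by their rank. Only the ratio window could have left them out, so their membership is largely built in. Leaving out HS+TSA replicate 1, 61 identifiers were among the top 100 of the other 5 libraries, of which 59 were members.

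Reads were spread more evenly over the members in replicate 1 of each group. The number of members that together held 50% of the set's counts was 54, 35 and 30 in HS+TSA replicates 1 to 3, against 44, 30 and 30 in pollen culture. The SD of log2 CPM across the members was 0.82, 1.07 and 1.20 in HS+TSA, against 1.08, 1.20 and 1.20 in pollen culture. By the rule no member could go below 200 CPM in any library. The part of this floor in the narrower spread of replicate 1 was not tested.

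The limits of the rule cut through a continuous range. Of 211 identifiers at or above 200 CPM in every library, 4 had a ratio outside the window, all of them under 0.5 (0.495, 0.483, 0.425 and 0.396), and none had a ratio over 2. The members nearest to these limits had ratios of 0.543 and 1.88. At the floor, the members with the lowest single value had 200.6, 200.7 and 201.3 CPM in their lowest library, and the nearest identifiers left out had 199.9, 199.8 and 199.2 CPM. A further 87 identifiers with a ratio in the window reached the floor in 5 of the 6 libraries. The library under the floor was HS+TSA replicate 1 for 43 of these, replicate 2 for 7 and replicate 3 for 2, against pollen-culture replicate 1 for 19, replicate 2 for 1 and replicate 3 for 15. Without HS+TSA replicate 1 the rule would give 262 members, all 207 among them.

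**Figure D2:**
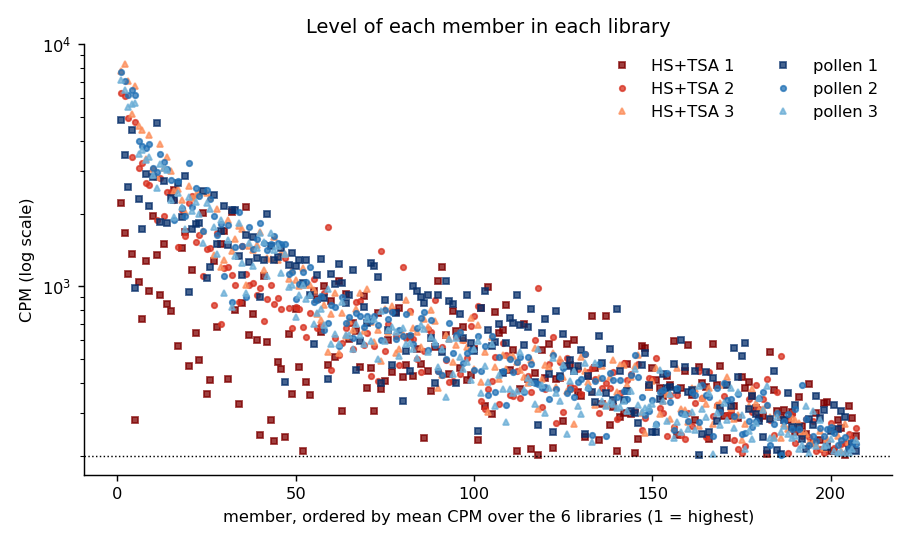
CPM on a log scale (y axis) of each of the 207 members, ordered by mean CPM (x axis, 1 is the highest), with 1 point per library. Reds are HS+TSA and blues pollen culture, squares are replicate 1, circles replicate 2 and triangles replicate 3, and the dotted line is the floor of 200 CPM. Dark red squares (HS+TSA replicate 1) lie below the other 5 libraries for 42 of the top 52 members.

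The 5 most abundant members showed how far the libraries could part. GSBRNA2T00009849001, the highest on average, had 2203, 6321 and 7746 CPM in HS+TSA replicates 1 to 3, against 4884, 7722 and 7104 CPM in pollen culture. It ranked 1st or 2nd of all identifiers in every library, although its level in HS+TSA replicate 1 was the lowest of the 6 and the groups overlapped. GSBRNA2T00142853001 had 1655, 6145 and 8329 CPM in HS+TSA, against 3506, 7032 and 6484 CPM in pollen culture. GSBRNA2T00144552001 had 1128, 4986 and 7050 CPM in HS+TSA, against 2570, 6165 and 5535 CPM in pollen culture. In both identifiers replicate 1 was the lowest library of its group, and HS+TSA replicate 3 was the highest of all 6.

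GSBRNA2T00109620001 had 1366, 3432 and 5148 CPM in HS+TSA, against 4428, 6476 and 5663 CPM in pollen culture. Its HS+TSA mean of 3315 ± 1894 CPM lay below its pollen-culture mean of 5522 ± 1031 CPM (SD, n = 3 each), with overlapping groups. GSBRNA2T00156847001 differed most widely between libraries, with 282, 4779 and 6738 CPM in HS+TSA, against 981, 6188 and 5715 CPM in pollen culture. It ranked 283rd, 4th and 4th of all identifiers in HS+TSA, against 67th, 4th and 3rd in pollen culture. Its highest value was 30.5 times its lowest after scaling, the widest range of the set, and replicate 1 was the low library in both groups. Its group means, 3933 ± 3310 CPM in HS+TSA and 4295 ± 2879 CPM in pollen culture (SD, n = 3 each), were close, which is how it met the rule.

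At the other end were members that barely moved. GSBRNA2T00134255001 had 260, 271 and 290 CPM in HS+TSA, against 296, 302 and 262 CPM in pollen culture, here with totals scaled by the trimmed mean of M-values (TMM), a method that sets libraries on the level of most genes. GSBRNA2T00058381001 had 242, 227 and 236 CPM in HS+TSA, against 236, 247 and 209 CPM in pollen culture on the same scale. Their highest values were 1.16 and 1.18 times their lowest, and the groups overlapped in both. By library totals alone HS+TSA replicate 1 was the highest library for both, at 308 and 287 CPM, so their evenness depends on the scaling. Over the whole set the median ratio of highest to lowest library was 2.31, and 73 members stayed within 2-fold over the 6 libraries. Without HS+TSA replicate 1 the median was 1.87 and 126 members stayed within 2-fold.

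The order of the members by level was largely kept between the groups and was least kept in HS+TSA replicate 1. Across the 207 members, Spearman's rho between the mean CPM of HS+TSA and that of pollen culture was 0.913, and 17 of the 20 highest were in common. The median member changed place by 14 positions among the 207, and the largest change was 83. Single libraries shared 9, 16 and 18 of their own 20 highest members with the 20 highest of the pollen-culture mean in HS+TSA replicates 1 to 3, against 13, 19 and 18 for the pollen-culture libraries, which enter that mean. Members share their libraries and are not independent, so these values describe the libraries. The rule held the group means of each member within 2-fold of each other, while mean CPM ran from 232 to 5997. The likeness in order between the group means is therefore largely built in.

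Library by library, the closest pair was one of each group. On the TMM scale the median absolute log2 difference over the members was 0.15 between HS+TSA replicate 3 and pollen-culture replicate 2, the smallest of the 15 pairs, and their rho was 0.965, the highest. HS+TSA replicate 3 and replicate 2 of its own group differed by a median of 0.38 (rho 0.911), and pollen-culture replicates 2 and 3 by 0.30 (rho 0.961). By library totals the median was again smallest in the mixed pair, at 0.15, with 0.29 and 0.18 in the other 2 pairs. Over all 49871 identifiers with enough reads to be tested, the mixed pair differed by a median of 0.39, against 0.31 for HS+TSA replicates 2 and 3 and 0.26 for pollen-culture replicates 2 and 3. HS+TSA replicate 1 differed from each of the other libraries by a median of 0.59 to 0.70 over the members, with rho between 0.486 and 0.626. Its highest rho was with pollen-culture replicate 1 and not with a library of its own group. Its smallest median difference on the TMM scale was with HS+TSA replicate 2, at 0.588, against 0.681 with pollen-culture replicate 1. By library totals it was smallest with pollen-culture replicate 1, at 0.554, against 0.584 with HS+TSA replicate 2. The nearest library thus depends on the measure. The rule keeps only members with similar group means, so small distances between groups are partly built in.

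**Figure D3:**
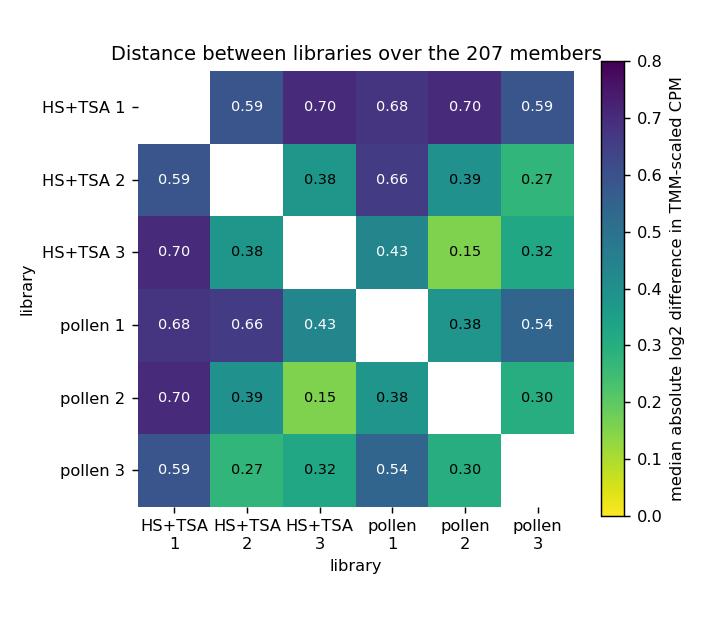
Median absolute log2 difference in TMM-scaled CPM over the 207 members for each pair of libraries (both axes list HS+TSA replicates 1 to 3 and then pollen-culture replicates 1 to 3; the colour bar gives the scale). The smallest value, 0.15, joins HS+TSA replicate 3 with pollen-culture replicate 2, and the row of HS+TSA replicate 1 holds values of 0.59 to 0.70.

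Differences between the groups were small by the rule and mostly pointed toward lower levels in HS+TSA. The fitted log2 fold change (HS+TSA over pollen culture, edgeR with TMM scaling) had a median of -0.21 over the members (quartiles -0.45 and 0.06, range -0.96 to 0.75), beside -0.0067 over all identifiers tested. It was below 0 in 144 members and above 0 in 63. Scaling by library totals alone moved the median of all tested identifiers to 0.12 and that of the members to -0.10, with 132 below 0 and 75 above, so the members lay 0.22 below the rest on that scale and 0.20 below with TMM. Of the members, 170 lay within 1.5-fold.

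In the fit of all libraries, the lower fitted levels were mainly those of the most abundant members. The median log2 fold change was -0.48 in the 52 members with the highest mean CPM, -0.24 in the next 51, -0.15 in the next 52 and -0.06 in the lowest 52. In these 4 classes the median SD of log2 CPM between HS+TSA replicates was 1.00, 0.46, 0.37 and 0.26, against 0.29, 0.36, 0.36 and 0.30 between pollen-culture replicates. The top 52 thus had both the lowest fitted values and the widest spread in HS+TSA. HS+TSA replicate 1 was the lowest of the 6 libraries in 44 of the 52 (42 by library totals). Without HS+TSA replicate 1 the log2 fold change rose from -0.33 to 0.02 in GSBRNA2T00009849001 and from -0.12 to 0.28 in GSBRNA2T00142853001. It rose from -0.15 to 0.27 in GSBRNA2T00144552001 and from -0.14 to 0.35 in GSBRNA2T00156847001. In GSBRNA2T00109620001 it rose from -0.79 to -0.44 and stayed negative. The class medians without this library are not given here.

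No member passed the test between the groups. With the quasi-likelihood test of edgeR and p-values adjusted (Benjamini-Hochberg) over all 49871 identifiers, at a threshold of 0.05, 0 of 207 were called higher in HS+TSA, where 6.66% of all tested identifiers were, and 0 were called lower, where 2.42% were. The window of the rule removes large differences, so nothing is read from this count. An unadjusted p under 0.05 was reached by 2 members, beside 20.5% of all tested identifiers. DESeq2 called 1 member lower, beside 4.16% of those it tested, and 0 higher, beside 9.47%, while limma-voom called 0 higher, beside 6.57% of all tested identifiers, and 0 lower, beside 2.82%. In limma-voom 9 members had an unadjusted p under 0.05, beside 21.5% of all tested. The absence of calls does not show equal levels. The 95% interval of the log2 fold change had a median half-width of 0.89 (0.56 to 2.60), it covered 0 in 205 members, and in 145 it reached beyond 1 log2 unit in at least one direction.

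**Figure D4:**
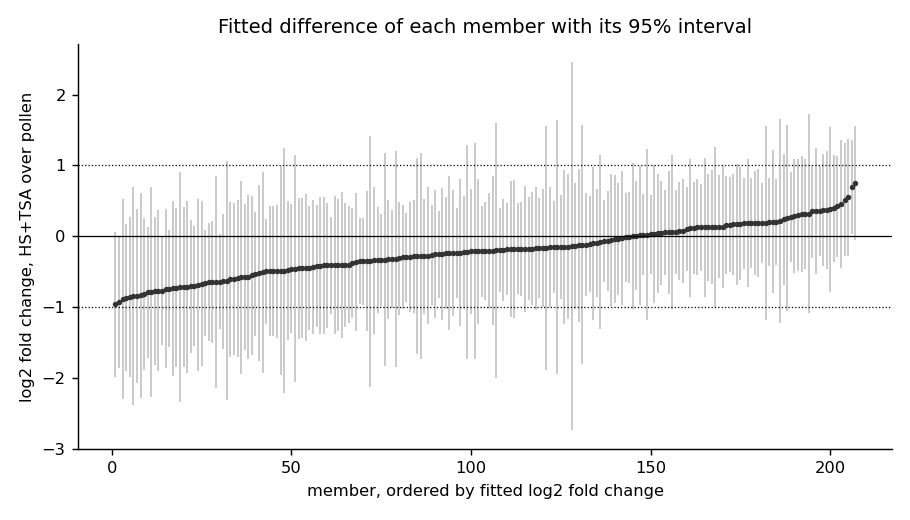
Fitted log2 fold change of HS+TSA over pollen culture (y axis) for each member, in increasing order (x axis), with its 95% interval from the edgeR fit as a grey bar. Dotted lines mark 1 log2 unit on either side of 0. The points run from -0.96 to 0.75 and 205 of the 207 bars cross 0.

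The members with the largest fitted differences did not pass the edgeR threshold. GSBRNA2T00117627001 had 306, 567 and 590 CPM in HS+TSA, against 1208, 753 and 734 CPM in pollen culture (log2 fold change -0.96, SE 0.44, edgeR adjusted p = 0.280). GSBRNA2T00125190001 had 1275, 838 and 1350 CPM in HS+TSA, against 2381, 1948 and 1752 CPM in pollen culture (log2 fold change -0.93, SE 0.40, edgeR adjusted p = 0.245). All HS+TSA libraries were below all pollen-culture libraries in both. DESeq2 called GSBRNA2T00125190001 (log2 fold change -0.96, adjusted p = 0.0358).

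GSBRNA2T00058483001 had 756, 460 and 366 CPM in HS+TSA, against 367, 244 and 228 CPM in pollen culture (log2 fold change 0.75, SE 0.35, edgeR adjusted p = 0.280). By library totals its lowest HS+TSA value was just under its highest pollen-culture value, while on the TMM scale these were 394 and 387 CPM and the groups did not overlap. GSBRNA2T00101764001 had 410, 505 and 460 CPM in HS+TSA, against 250, 270 and 269 CPM in pollen culture (log2 fold change 0.70, SE 0.28, edgeR adjusted p = 0.216), without overlap on either scale. It was one of the pair with an unadjusted p under 0.05. The other, GSBRNA2T00103893001, named after its values were seen, had 476, 441 and 560 CPM in HS+TSA, against 906, 743 and 692 CPM in pollen culture (log2 fold change -0.77, SE 0.33, edgeR adjusted p = 0.241).

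Groups without overlap were few. On the TMM scale every HS+TSA library lay above every pollen-culture library in 8 members, where 16.4% of all tested identifiers did so, and below in 15 members, where 11.2% did so. The groups overlapped in the other 184. These counts rested on single libraries, and 2 libraries against 3 overlap less often over the whole table too. Without HS+TSA replicate 1 there were 25 higher (23.4% of all tested identifiers), and without pollen-culture replicate 1 there were 21 higher (22.9% of all tested). Without HS+TSA replicate 3 there were 60 lower (17.4% of all tested), and without pollen-culture replicate 3 there were 52 lower (15.5% of all tested). The rule used this contrast, so nothing is read from these counts.

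Spread between replicates was far larger than counting error. The median coefficient of variation of TMM-scaled CPM was 29.2% among HS+TSA replicates and 21.4% among pollen-culture replicates (n = 3 each), while counting error alone gave medians of 1.06% and 1.01%. The observed value was above the counting value in all 207 members in both groups. The SD of log2 CPM was larger in HS+TSA than in pollen culture in 120 of the 207 members. With edgeR's model of all libraries the median biological coefficient of variation was 0.332 for the members, beside 0.368 for all tested identifiers.

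Replicate 1 stood apart from replicates 2 and 3 in both groups, with median shifts of opposite sign. The shift of replicate 1 is given as its log2 CPM minus the mean of replicates 2 and 3 of its group, on the TMM scale. In HS+TSA it had a median of -0.47 over the members (quartiles -1.18 and 0.04), beside -0.09 over all tested identifiers, and was negative in 149 members and positive in 58. In pollen culture the median was 0.23 (quartiles -0.22 and 0.60), beside -0.0033 over all tested identifiers, with 79 negative and 128 positive. Scaling by library totals moved the HS+TSA medians to -0.19 for the members, with 122 negative, and 0.19 for all tested, and the pollen-culture medians to 0.21 and -0.03. Relative to all tested identifiers the members' shift was -0.37 in HS+TSA and 0.24 in pollen culture on either scale. Replicate 1 was the shallowest library of both groups, and the part of depth in this shift was not tested.

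On the TMM scale replicate 1 was lower by at least 1 log2 unit in 61 members in HS+TSA and in 9 in pollen culture. It was higher by as much in 3 in HS+TSA and in 14 in pollen culture. By library totals the HS+TSA counts were 44 lower and 9 higher, and the pollen-culture counts again 9 lower and 14 higher. The share of all tested identifiers that shifted as far is not given here. HS+TSA replicate 1 was the lowest of the 6 libraries for 112 members (88 by library totals), and pollen-culture replicate 1 was the highest for 87 (73 by library totals). In HS+TSA, but not in pollen culture, the shift was largest at the top of the set. The median in HS+TSA was -1.55 in the 52 most abundant members, -0.51 in the next 51, -0.27 in the next 52 and -0.10 in the lowest 52. In pollen culture the medians were -0.16, 0.41, 0.37 and 0.21. By library totals the 4 HS+TSA medians were -1.27, -0.23, 0.01 and 0.18, so the sign of the lower 2 classes depends on the scaling, whereas the top 52 were lower on both scales.

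The replicate 1 shifts of the groups ran in parallel from member to member although their medians had opposite signs. Across the 207 members, Pearson's r between the HS+TSA shift and the pollen-culture shift was 0.664 and Spearman's rho 0.578, beside 0.469 and 0.461 across all tested identifiers. The 2 shifts use different libraries, and members of a library share its depth and scaling. Replicate 1 was lower in both groups in 74 members and higher in both in 53. In 75 it was lower in HS+TSA and higher in pollen culture, and in 5 the reverse. In the interaction term of group and replicate 1, 0 members were called, beside 0.0% of all tested identifiers (edgeR, lowest adjusted p of a member 0.184). An unadjusted p under 0.05 was reached by 31 members (14.98%), beside 16.7% of all tested. This model leaves 2 residual degrees of freedom.

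**Figure D5:**
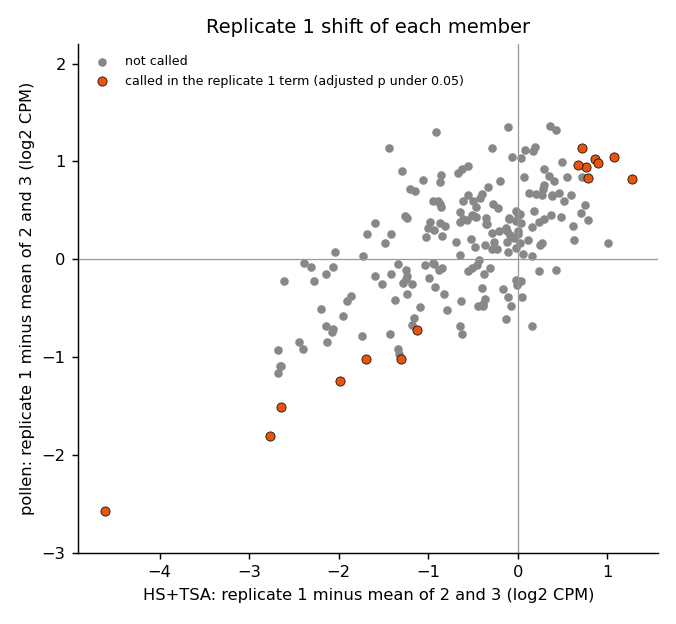
Shift of replicate 1 from the mean of replicates 2 and 3, in log2 TMM-scaled CPM, in HS+TSA (x axis) and in pollen culture (y axis), with 1 point per member. Orange points are the 15 members called in the model with a term for replicate 1. They lie at the ends of a rising cloud, 7 below 0 and 8 above 0 on both axes, which largely follows from calling them by a term common to both groups.

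In a model with group and a common term for replicate 1, 15 of the 207 members (7.25%) differed between replicate 1 and replicates 2 and 3 at an adjusted p of 0.05, beside 17.8% of all tested identifiers (edgeR, Benjamini-Hochberg). Of these, 8 were higher in replicate 1, beside 8.44% of all tested, and 7 were lower, beside 9.41%. The contrast was not part of the rule, except that the floor of 200 CPM removes identifiers that are very low in replicate 1. It was chosen with earlier results of these data known, so its p-values are not those of a contrast set in advance. All 15 shifted in the same direction in both groups, which a term common to both groups largely selects for. The count rested on single libraries and settings. It was 0 without HS+TSA replicate 1, beside 7.82% of all tested identifiers. It was also 0 without HS+TSA replicate 2 (5.6%) and without pollen-culture replicate 2 (2.7%). In these 3 fits 31, 25 and 30 members had an unadjusted edgeR p under 0.05. The share of all tested identifiers at that unadjusted threshold is not given here, so nothing is read from these 3 counts. Dropping HS+TSA replicate 3 gave 16 (19.3%), dropping pollen-culture replicate 1 gave 27 (16.7%) and dropping pollen-culture replicate 3 gave 6 (8.75%). DESeq2 called 53 members, beside 23.8% of those it tested, and edgeR called 31 by library totals, beside 16.8%, and 35 with no filter on low counts, beside 14.9%. All 15 were among the calls of these 3 settings.

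The 7 called lower had fitted log2 differences of -3.49 to -0.92 and included 3 of the top 52, and the 8 called higher had differences of 0.81 to 1.06 and mean CPM of at most 748. GSBRNA2T00156847001, described above, was lowest, at -3.49 (SE 0.68, edgeR adjusted p = 0.0197). GSBRNA2T00125129001 was highest, at 1.06 (SE 0.22, edgeR adjusted p = 0.0239), with 1055, 446 and 382 CPM in HS+TSA replicates 1 to 3, against 925, 446 and 465 CPM in pollen culture. Replicate 1 was thus about as high in HS+TSA as in pollen culture for this member, and replicates 2 and 3 of both groups lay together. The group difference of such members is near 0 while the libraries within a group part widely, and a mean per group does not show this.

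Less abundant identifiers with a ratio in the same window varied less between replicates. For 1961 identifiers whose lowest library lay between 50 and 200 CPM, the median SD of log2 CPM was 0.33 in HS+TSA and 0.27 in pollen culture, beside 0.42 and 0.32 for the 207 members. The lowest 52 members had 0.26 in HS+TSA and 0.30 in pollen culture, so in HS+TSA the contrast did not hold for them. The median replicate 1 shift of the 1961 was -0.10 in HS+TSA and 0.12 in pollen culture. Their share of the counts was 26.4%, 23.7% and 23.9% in HS+TSA replicates 1 to 3, against 25.2%, 24.3% and 23.0% in pollen culture. In HS+TSA replicate 1 this class thus held its highest share, in the library where the members held their lowest. The 268 identifiers that averaged 200 CPM or more without being members had a median replicate 1 shift of -0.81 in HS+TSA and -0.14 in pollen culture. In the replicate 1 term 17.2% of the 268 were called, beside 15.9% of the 1961, 7.25% of the members and 17.8% of all tested identifiers. Of the 268, 99 were under the floor in 1 library, 165 in 2 or more and 4 in none. HS+TSA replicate 1 was among the libraries under the floor for 154, so their larger shift in HS+TSA follows in part from how they were selected. These differences between classes were not tested.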

How the data were processed

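The authors deposited 1 table of whole-number read counts per gene identifier, with 1 column per library and no normalization. Per the submitters' processing notes, reads went through TopHat2 (a spliced aligner) and HTSeq (a counter), no version stated. Build, annotation and strand setting: not given in the sources used here. Samples were grouped by title and columns matched to sample descriptions. The members, lists and the split by replicate 1 were chosen with earlier results of these data known.

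Counts were fitted with edgeR 4.0.16 (R 4.3.3), quasi-likelihood F test, TMM scaling, filterByExpr (minimum count 10; 49871 identifiers kept, all 207 members among them), with group alone, with a term for replicate 1, or with its interaction, and Benjamini-Hochberg adjustment over all identifiers at 0.05. DESeq2 1.42.0 and limma 3.58.1 (voom) were alternatives. SE is the log2 fold change over the square root of F. Log2 CPM per library used a prior count of 0.5. The edgeR fits with group alone and with a replicate 1 term were run on simulated counts with planted changes. Those counts held no single outlying library like HS+TSA replicate 1, so that feature of the data was not covered. Named members were fixed by rule: the 5 with the highest mean CPM, the 2 largest fitted differences in each direction, the largest replicate 1 shift in each direction and the 2 smallest ranges. The labels call the replicates biological but name no separate cultures or batches. No pair of libraries was a repeat within sampling noise (chi-square per degree of freedom at least 10.2, over identifiers with 20 or more reads). Intervals are given only for the log2 fold change. They were built from the edgeR SE, which includes the spread between libraries and not counting error alone.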

Additional observations from a re-analysis of the deposited data

How the results depend on the processing

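The number of members and their share of counts follow the chosen limits. A floor of 100 CPM gave 709 members with 26.2% of the counts in HS+TSA and 28.4% in pollen culture, and a floor of 500 CPM gave 48 with 8.19% and 9.83%. A ratio window of 2/3 to 1.5 gave 175 members with 15.03% of the pollen-culture counts. TMM-scaled totals gave 186 members, 183 of them among the 207. Leaving out a library from the rule gave 189 to 262 members, with 12.8% to 21.1% of the counts in HS+TSA and 15.6% to 22.1% in pollen culture. Between the groups, DESeq2 called 1 member lower, beside 4.16% of those it tested. Every other setting called 0 members, including each fit that left out a library. Shares over all tested identifiers are given here only for the main fit, DESeq2 and limma-voom. The rule used this contrast, so nothing is read from these counts. The median log2 fold change of the members ran from -0.39 to -0.12 without single libraries and stayed below 0 in every setting. For overlap without single libraries, shares over all tested identifiers are given above only in part, so nothing is read from those counts either. The members without overlap were 9 to 25 higher and 16 to 60 lower without single libraries. Those called in the replicate 1 term numbered 31 by library totals, 35 with no filter and 53 by DESeq2, and 0 to 27 without single libraries. The cause of these changes was not tested. The interaction gave 0 calls among the members under all 3 scalings. With TMM scaling it called 0.0% of all tested identifiers too, so these counts say nothing particular about the members. The settings with replicates 2 and 3 alone and the scalings of the interaction were added after seeing the data.

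Same-numbered libraries were compared by the correlation between the groups of deviations from their means. Over all tested identifiers it was 0.47 in replicate 1, 0.37 in replicate 2 and 0.02 in replicate 3, not all over a cut of 0.1. Over the members alone it was 0.66, 0.60 and 0.20 in replicates 1, 2 and 3, each over 0.1. Deviations from a group mean depend on each other, so these values cannot settle whether same-numbered libraries pair. The best match carried the same number for 3 of the 6 libraries. With the replicate number as a block the members' median log2 fold change was -0.23, with 0 called higher and 0 called lower. The share of all tested identifiers called in that fit is not given here, so nothing is read from this count. The lowest count of a member was 2360, and counting error was below the observed coefficient of variation in all 207 members in both groups.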
